A study of Sus scrofa with 9 samples.

Results

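The left ventricle of the newborn pig was compared at postnatal day 7 with the average of postnatal day 0 and postnatal day 15, to describe the genes whose transcripts peaked or dipped in the middle of the series. The day 7 group was 3 of the 9 RNA sequencing libraries, and the other 6 were 3 from day 0 and 3 from day 15. All 9 came from myocardium of wild type pigs, with no treatment named in the labels. Values were in TPM, a unit that gives each transcript's share of its library scaled for transcript length. A gene was tested when it reached 1 TPM in at least 3 libraries, which 12268 genes did, and a gene was called when its contrast, the day 7 mean of log2(TPM + 1) minus the average of the other ages' means, had an adjusted p under 0.05 (limma, Benjamini-Hochberg over all genes tested). Libraries carry the replicate numbers 4, 5 and 6 at day 0, 2, 5 and 6 at day 7, and 1, 2 and 6 at day 15, and values are given below in that order. Nothing in the labels ties each library to an animal of its own, and the p-values therefore cover only the scatter among these 9, which may be technical.

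After birth the left ventricle takes over the pressure load of the body's circulation. Heart muscle cells then move from sugar to fatty acids as their main fuel and leave the cell cycle, while capillaries, fibroblasts and matrix grow between them. Transcripts for DNA replication are switched on by E2F factors before a cell copies its DNA, and those for mitosis are switched on later by MYBL2 and FOXM1, so both groups mark cells in cycle, whatever their type. In bulk tissue, more cells of a type and more RNA per cell cannot be told apart.

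Markers of ventricular muscle were abundant in all 9 libraries: TNNT2, a thin filament protein of heart muscle, ranged from 6914 to 10582 TPM, and MYL2, the ventricular light chain, from 1492 to 2800 TPM. SLN, a marker of atrial muscle, stayed at or below 0.110 TPM. The summed TPM of the 9 atrial markers in the table nevertheless differed between libraries of the same age, at 604, 2996 and 882 at day 0, 471, 2381 and 190 at day 7, and 202, 699 and 365 at day 15. A single transcript took from 24.0% to 46.0% of all TPM in a library, and mitochondrial transcripts took from 16.5% to 24.6%. The Y-linked helicase gene DDX3Y was below 0.2 TPM in all 3 day 0 libraries, at 23.3, 33.3 and 0.126 TPM at day 7, and at 0.0730, 31.8 and 27.0 TPM at day 15. Libraries with a Y-linked transcript were thus 0 of 3 at day 0, 2 of 3 at day 7 and 2 of 3 at day 15, so sex and age were partly confounded, and the labels used here do not give the sex. A fit with a term for these libraries is given beside the main counts.

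At day 7, 188 genes were higher than the average of the other ages (1.53% of the 12268 tested) and 48 were lower (0.391%), together 236 genes (1.92%). All 188 genes called higher had their highest mean at day 7, and 35 of the 48 called lower had their lowest mean there (0.285% of genes tested). The other 13 were lower than in the newborn at day 7 and at day 15 alike, each past the test at both ages (2255 genes, 18.4% of all tested, were below the newborn at day 15). The contrasts of the higher genes ran from 0.61 to 1.97 on the log2 scale with a median of 0.93, and 72 of them reached 1, a 2-fold difference. Those of the lower genes had a median of -0.92. Of the higher genes 10 reached 1 TPM only in the 3 day 7 libraries, and of the lower genes 5 did so only at day 0 and 1 only at day 15. Such genes were tested only because 1 age was high, so their calls are no support. Genes that also reached 1 TPM in a library of another age, such as POLE below, are outside these counts. Without any test, 4323 of the genes tested (35.2%) had their highest mean at day 7 and 1900 (15.5%) their lowest.

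**Figure D1:**
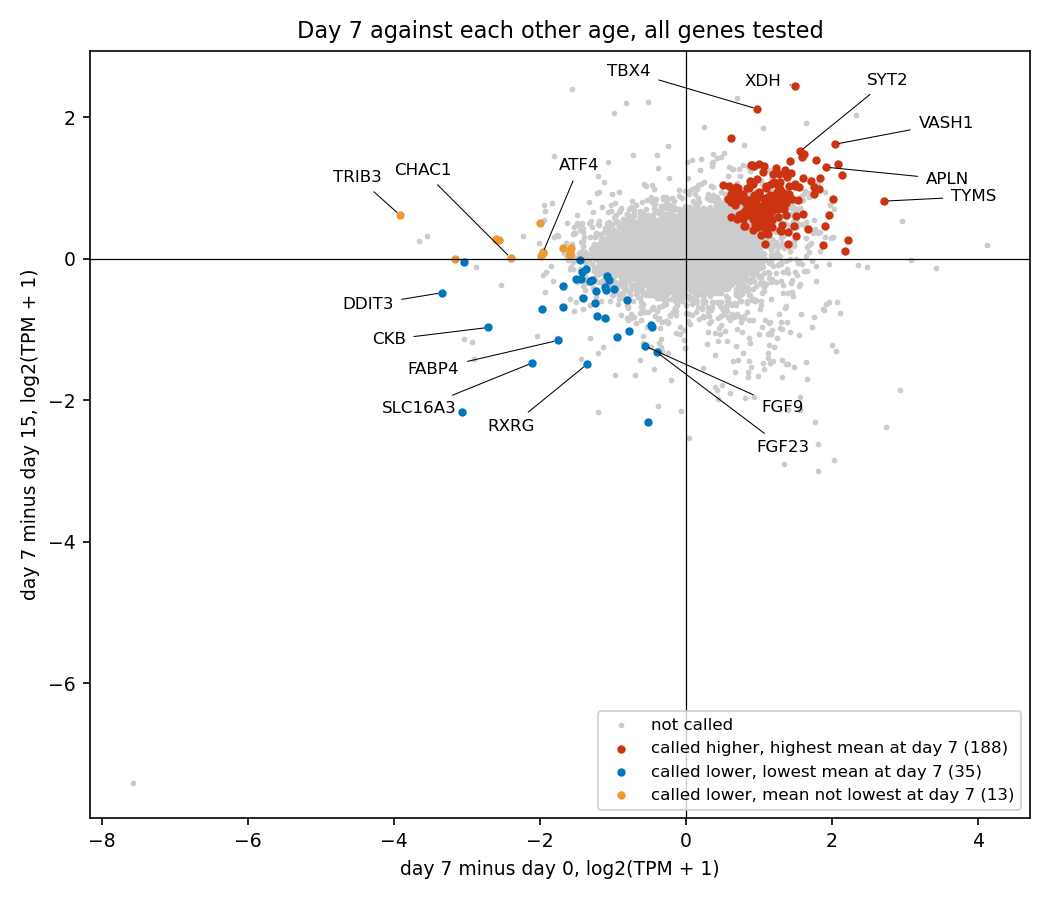
Each point is a gene tested, with its day 7 minus day 0 difference across and its day 7 minus day 15 difference upward, both in log2(TPM + 1). The 188 genes called higher (red) lie in the upper right quadrant, the 35 with a called trough (blue) in the lower left, and the 13 other lower genes (orange) at or above the zero line of the day 15 comparison.

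Most of these calls passed the test of the step from day 0 to day 7, and few that of the step from day 7 to day 15. Of the 188 higher genes, 182 passed the test of day 7 against day 0 on its own (941 genes, 7.67% of all tested, did so in that direction), and 12 passed day 7 against day 15 (16 genes, 0.13%). Of the 48 lower genes, 44 passed against day 0 (1090 genes, 8.88%) and 5 against day 15 (5 genes, 0.0408%). Between day 0 and day 15, 32 of the higher genes ended above the newborn (678 genes, 5.53%) and 2 below it, while 33 of the lower genes ended below and 3 above. Both steps share the day 7 libraries, so these counts are not independent of each other. Each step was adjusted separately, so the counts do not compare the sizes of the steps. By day 15 the typical higher gene had lost 69.4% of its log2 gain (median), and 151 of the 188 had lost at least 50%. Among the lower genes the median regain was 26.3%, and 24 of the 48 had regained less than 25%. When both steps were required together, by the larger of the limma p-values adjusted over all genes, 2 genes were called above both ages (0.0163%), SYT2 and the unnamed row ENSSSCG00000035617, and 0 were called below both, where the smallest adjusted p was 0.145. Before adjustment, 523 genes above and 50 below passed that joint requirement at 0.05.

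The libraries themselves separated for most of the higher genes. In 172 of the 188, all 3 day 7 libraries lay above all other 6 libraries, against 755 genes among all tested (6.15%). In 21 of the 48 lower genes all 3 lay below, against 61 among all tested (0.497%). The contrast had picked these genes from the same libraries, so the separation describes the calls and adds no support to them. Replicate 2 was the highest day 7 library for 114 of the 188 higher genes, replicate 5 for 41 and replicate 6 for 33. Replicate 5 was the highest newborn library for 136 of them. The median day 7 level of the higher genes was 8.01 TPM, close to the 7.81 TPM of all genes tested, and that of the lower genes was 3.44 TPM.

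These counts depended on single libraries. Leaving out replicate 6 of day 7 left 0 genes called in either direction, leaving out replicate 2 left 1 higher and 2 lower, and leaving out replicate 5 left 38 and 26. Leaving out day 0 replicate 4 left 10 and 4, and replicate 6 left 13 and 3, whereas without day 0 replicate 5 the counts rose to 587 and 130. Without day 15 replicate 6 they were 69 and 19. In each of these fits every called gene that could still be tested kept its sign and an unadjusted p under 0.05. The fits reuse most of the same libraries and the genes were chosen for small p-values, so this adds no support. With a term for libraries with Y-linked transcripts, chosen after seeing the data, 44 genes were called higher and 42 lower. All 236 genes kept their sign, and the median contrast with the term was 0.972 times that without it for the higher genes and 1.06 times for the lower. Other scalings changed the balance of the calls: median-of-ratios scaling gave 282 higher and 302 lower (48.3% higher) and quantile normalization 284 and 269 (51.4% higher), against 79.7% higher as reported.

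**Figure D2:**
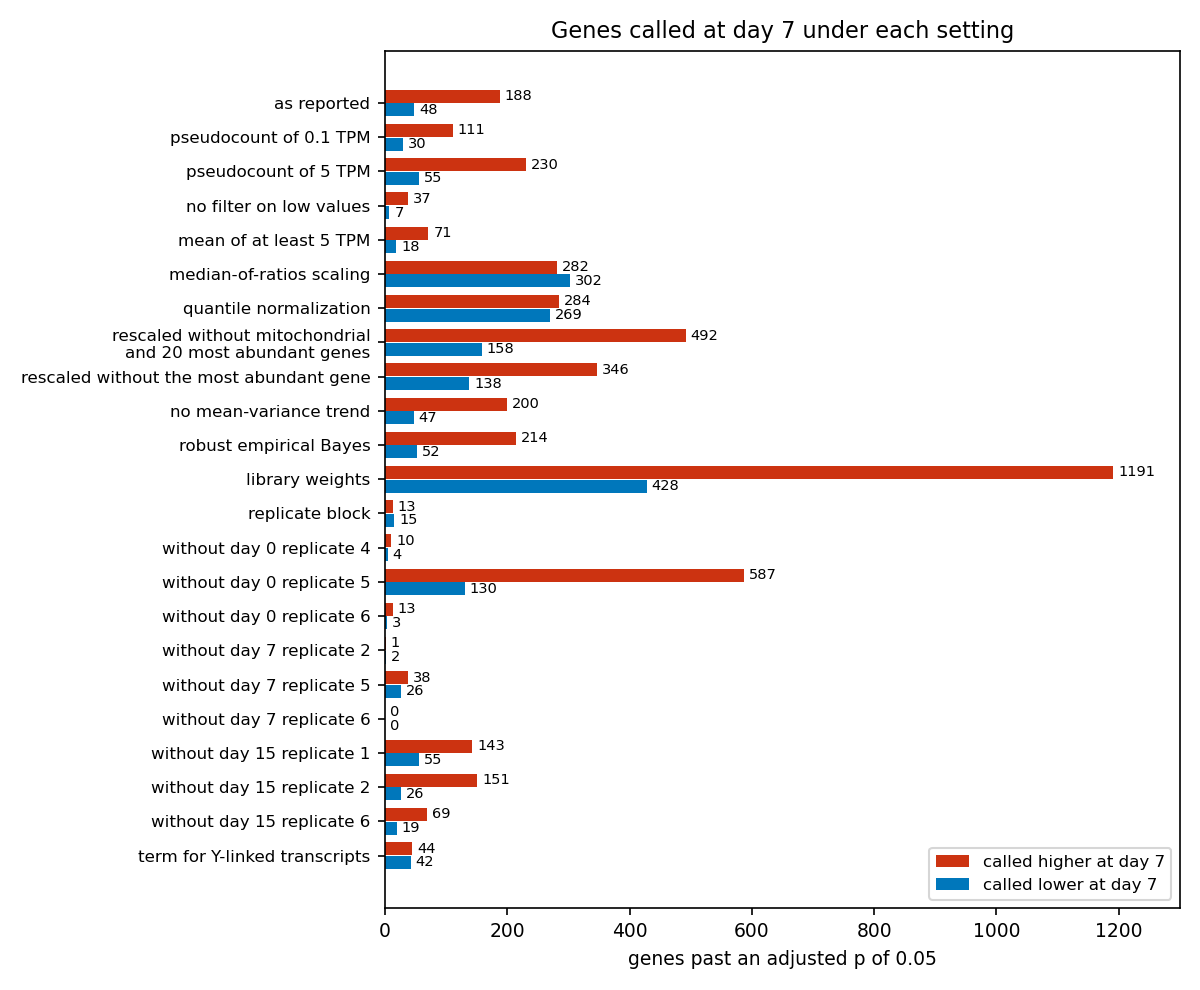
Bars give the number of genes with an adjusted p under 0.05 for the day 7 contrast, higher (red) and lower (blue), as reported and under each alternative setting. The count of higher genes was 188 as reported, 587 without day 0 replicate 5 and 0 without day 7 replicate 6.

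Among genes of at least 5 TPM whose day 7 libraries overlapped no other library, the largest contrasts belonged to VASH1, UHRF1 and APLN. VASH1, an inhibitor of angiogenesis that endothelial cells make themselves, was at 1.89, 3.74 and 2.66 TPM at day 0, 18.0, 11.2 and 14.2 TPM at day 7, then 5.61, 2.64 and 4.02 TPM at day 15. Every day 7 library was well above the other 6, with no overlap, and the contrast was 1.83 (SE 0.23, limma adjusted p = 0.00696). APLN, the peptide ligand of the apelin receptor and a marker of sprouting tip cells, was at 36.4, 34.3 and 41.1 TPM at day 0, 92.4 to 243 TPM at day 7, then 55.6 to 60.3 TPM at day 15. Its 3 day 7 libraries varied among themselves more than those of any other age but stayed above the rest (contrast 1.61, SE 0.24, adjusted p = 0.0151).

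Across the angiogenesis and endothelial lists, 4 of 40 genes tested were called higher (10%, against 1.53% of all genes) and 1 lower (2.5%, against 0.391%). Of 29 genes of the angiogenesis list, VASH1 and APLN were called higher (1.53% of all genes were) and none lower. The median contrast was 0.28 over the list against 0.04 over all genes tested. Of 12 endothelial markers tested, 2 were called higher (1.53% of all genes) and 1 lower (0.391% of all genes). CDH5, the cadherin of endothelial junctions, was at 27.7, 37.5 and 33.3 TPM at day 0, 68.4, 61.4 and 61.3 TPM at day 7, then 43.5, 32.4 and 45.9 TPM at day 15 (contrast 0.80, SE 0.16, adjusted p = 0.0332). PECAM1, an adhesion protein of the same junctions, went from 77.3 to 103 TPM at day 0 to 128 to 159 TPM at day 7 and back to 77.4 to 86.1 TPM (contrast 0.71, SE 0.15, adjusted p = 0.034). Neither gene's day 7 libraries overlapped the other 6. Further vessel genes were picked because they were called higher, so they add no support: the ephrin receptor EPHB4 (contrast 0.82), the semaphorin receptor PLXND1 (0.87), the junction protein JAM3 (0.67), the caveolar protein CAV1 (0.74) and the laminin receptor subunit ITGA6 (0.74). The summed TPM of the 12 endothelial markers overlapped between day 0 and day 7, at 599 to 741 at day 0, 542 to 706 at day 7 and 561 to 576 at day 15. Without FABP4, left out after its values were seen, the sum of the other 11 was 387 to 468 at day 0, 477 to 590 at day 7 and 390 to 415 at day 15, with all 3 day 7 libraries above the rest. The margin was small, 477 against 468 TPM, and a sum without a member removed for its fall is no support. Of the 12 markers, 6 had their highest mean at day 7 and 2 their lowest, beside 35.2% and 15.5% of all genes. EMCN, lowest at day 7 like FABP4, was at 13.1 to 22.1 TPM at day 0, 7.32 to 12.1 TPM at day 7 and 7.99 to 12.1 TPM at day 15. FABP4, the fatty acid carrier of capillary endothelium and fat cells, fell at day 7 and is described with the lower genes.

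**Figure D3:**
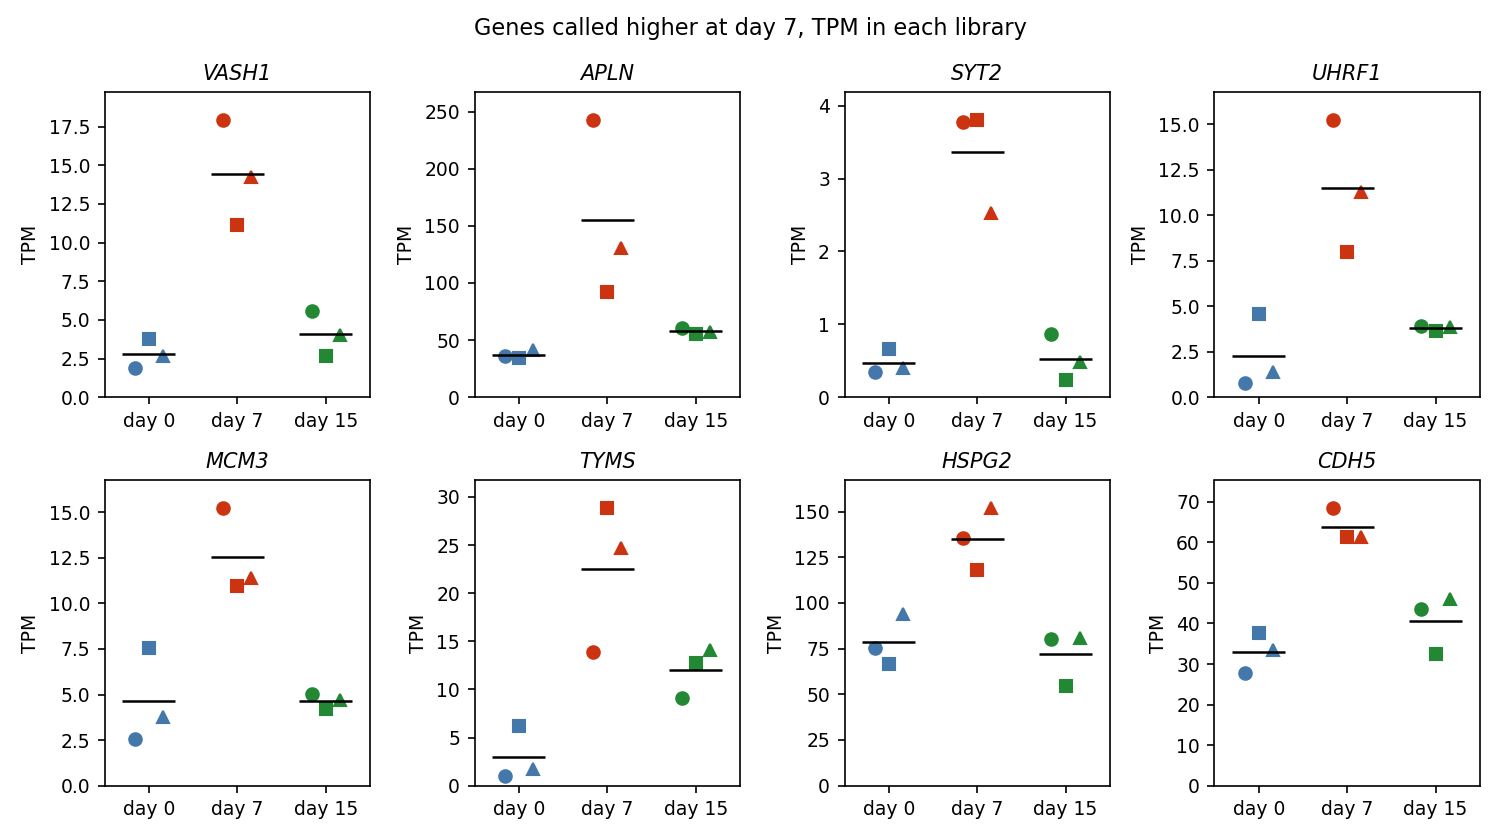
TPM of 8 genes called higher at day 7, with 1 point per library and the mean of each age as a bar. Circles, squares and triangles are replicates 4, 5 and 6 at day 0, 2, 5 and 6 at day 7, and 1, 2 and 6 at day 15. In every panel except TYMS the 3 day 7 points lie above the other 6.

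Many of the higher genes act in cell division. Across 7 lists of division genes, 43 of 214 tested members were called higher (20.1%, against 1.53% of all genes) and 0 lower, and they made up 22.9% of the 188 higher genes. Of the 43, POLE2 and E2F2 reached 1 TPM only at day 7. POLE also needed its day 7 libraries to be tested. In 171 of the 214 the highest mean was at day 7 (35.2% of all genes), and in 93 all 3 day 7 libraries lay above the other 6 (6.15% of all genes). The lists were chosen with earlier results of these data known, so these counts describe the lists and are not a test of them.

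Among DNA replication genes, 14 of 43 were called higher and 0 lower, with a median contrast of 0.73. MCM3, a subunit of the helicase that opens replication origins, was at 2.56, 7.55 and 3.75 TPM at day 0, 15.2, 11.0 and 11.4 TPM at day 7, then 5.02, 4.23 and 4.68 TPM at day 15 (contrast 1.30, SE 0.24, adjusted p = 0.0288). Its partners MCM2, MCM5 and MCM7 were called as well, with contrasts of 1.26, 1.27 and 1.05. POLE, the catalytic subunit of the leading strand polymerase, was a low transcript with little spread at day 7, at 3.04, 2.47 and 2.92 TPM against 0.377 to 0.912 TPM in the newborn and 0.658 to 1.12 TPM at day 15 (contrast 1.14, adjusted p = 0.014). No newborn library and not every day 15 library reached 1 TPM, so POLE was tested only through its day 7 libraries. Its call is therefore a description. PCNA, the sliding clamp that holds polymerases on DNA, was the most abundant called member of the list, at 26.4, 33.9 and 25.6 TPM, then 50.7, 41.1 and 41.3 TPM, then 18.2, 24.5 and 27.3 TPM (contrast 0.76, adjusted p = 0.0423). For MCM2 and PCNA the day 15 mean was below the newborn mean.

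Of 20 nucleotide supply genes tested, 2 were called higher (1.53% of all genes were), with a median contrast of 0.08. TYMS, which makes thymidylate, was at 1.03, 6.21 and 1.73 TPM at day 0, 13.9, 28.8 and 24.7 TPM at day 7, then 9.13, 12.7 and 14.1 TPM at day 15 (contrast 1.77, SE 0.35, adjusted p = 0.033). Its lowest day 7 library lay just under its highest day 15 library, and only 30.0% of its log2 gain was lost by day 15. TK1, which salvages thymidine, was at 2.39, 7.69 and 4.03 TPM, then 24.1, 14.2 and 14.0 TPM, then 6.36, 7.10 and 10.6 TPM, without overlap (contrast 1.39, adjusted p = 0.0337).

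Regulators of entry into DNA synthesis followed the same order. In the list of E2F and G1 to S genes, 5 of 27 were called higher: E2F1, E2F2, E2F8, CCNE2 and CDK2. E2F1, an activator of replication genes, was at 2.69, 11.4 and 4.31 TPM at day 0, 25.2, 20.1 and 18.2 TPM at day 7, then 8.81, 9.19 and 12.8 TPM at day 15 (contrast 1.40, SE 0.30, adjusted p = 0.0418). CDK2, the kinase that pairs with CCNE2 at the start of S phase, had a contrast of 0.78. The mitotic activators MYBL2 and FOXM1 had all 3 day 7 libraries above the other 6 without passing the test, with contrasts of 1.44 (adjusted p = 0.0538) and 0.85 (adjusted p = 0.0662).

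Mitosis and cytokinesis genes had the largest list medians of the 7, but newborn libraries differed most there. Of 57 mitosis genes 10 were called higher (median contrast 0.81), and of 22 cytokinesis genes 4 (median 1.00). TOP2A, the topoisomerase that untangles replicated chromosomes, was at 2.34, 8.30 and 2.61 TPM at day 0, 14.1, 13.3 and 11.8 TPM at day 7, then 4.67, 5.56 and 8.05 TPM at day 15 (contrast 1.28, SE 0.29, adjusted p = 0.0463). BUB1B, a kinase of the spindle checkpoint, was at 1.14, 4.33 and 0.968 TPM, then 9.31, 8.30 and 7.97 TPM, then 3.62, 3.42 and 5.30 TPM (contrast 1.33, adjusted p = 0.0351). The condensin subunit SMC2, the kinetochore protein CENPF and the citron kinase CIT, which acts at the closing midbody, were called with contrasts of 1.14, 1.14 and 0.97. CDK1, the kinase that drives entry into mitosis, was not called: newborn replicate 5 was at 22.8 TPM beside 3.11 and 5.69 TPM in the other newborn libraries, within the day 7 range of 18.3 to 24.4 TPM (contrast 0.94, adjusted p = 0.27). CCNB1, its cyclin partner, had the same layout, at 2.59, 11.6 and 3.43 TPM at day 0 and 6.95 to 11.2 TPM at day 7 (contrast 0.72, adjusted p = 0.281).

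Newborn replicate 5 stood apart from the other newborns in the mitosis, cytokinesis and DNA replication lists. The median deviation of the mitosis list from each gene's mean over the 9 libraries was -0.85, 0.26 and -0.72 at day 0, 0.74, 0.48 and 0.33 at day 7, and -0.38, -0.07 and 0.13 at day 15. For DNA replication the same measure was -0.54, 0.15 and -0.38, then 0.68, 0.40 and 0.37, then -0.36, -0.14 and -0.18. In nucleotide synthesis it lay between the other newborns, at 0.12, 0.31 and 0.38. The summed TPM of pericyte and smooth muscle markers in newborn replicate 5 was 4667 against 2116 and 2644 in the other newborns. Most of that was DES, which heart muscle also makes, at 3876 TPM against 1584 and 1980 TPM, and without DES the sums were 792 against 532 and 663. Its atrial sum was also the highest of the 9 libraries. Without that library 45 of the 57 mitosis genes, 17 of the 22 cytokinesis genes and 29 of the 43 replication genes were called higher, beside 587 of all 12172 genes tested in that fit. Without newborn replicate 4, or without replicate 6, 1 replication gene and 0 mitosis and cytokinesis genes were called. Over all genes only 10 and 13 were called higher in those fits, so these low counts are not particular to the lists. Without day 7 replicate 2 or replicate 6, 0 genes of the 3 lists were called, while their median contrasts stayed between 0.62 and 1.09. Over all genes 1 and 0 were called higher there.

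**Figure D4:**
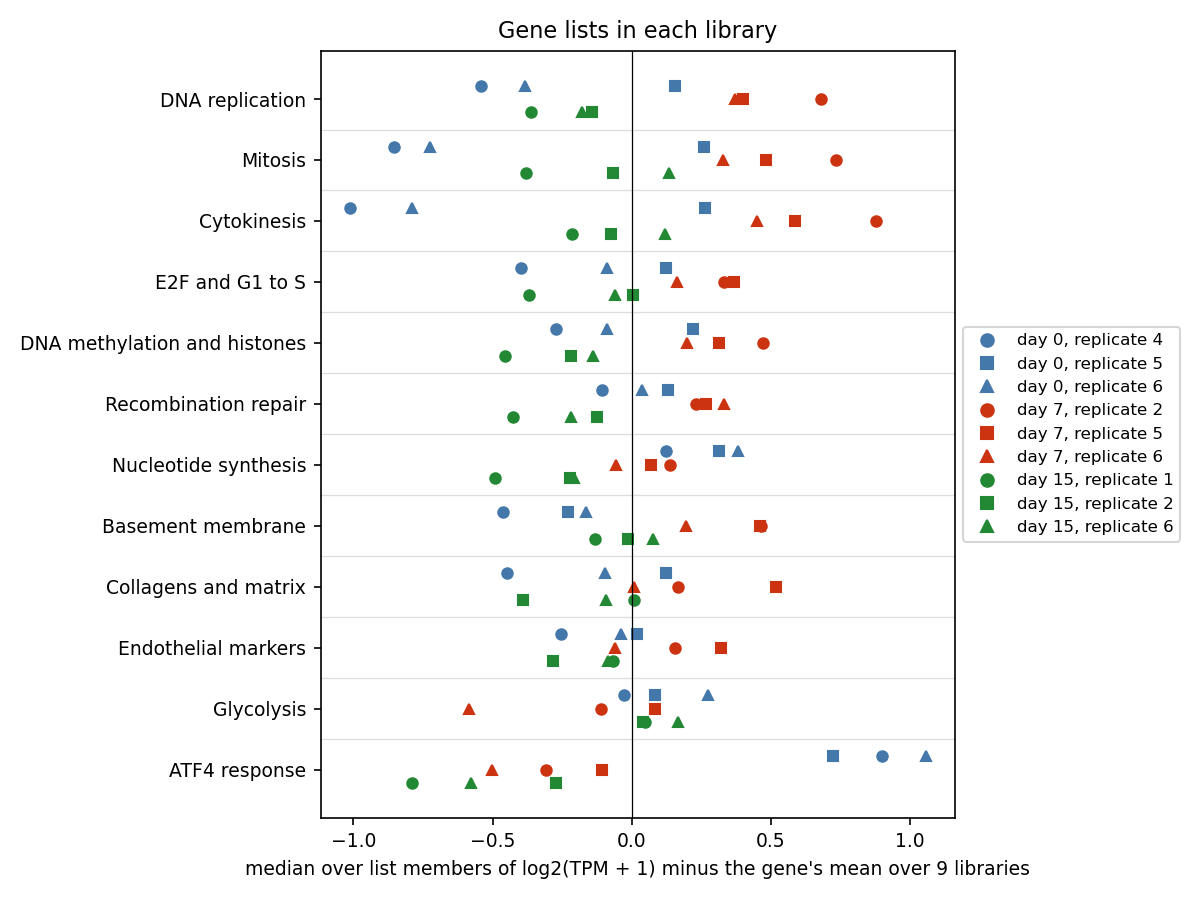
Each point is 1 library, placed by the median over a list's members of log2(TPM + 1) minus the gene's mean over 9 libraries, for 12 gene lists. For DNA replication, mitosis and cytokinesis the 3 day 7 libraries (red) lie to the right of the other 6, with newborn replicate 5 (blue square) nearest to them, and for the ATF4 response the newborn libraries lie apart at 0.72 to 1.06.

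Chromatin and repair genes that accompany DNA replication contributed further calls. UHRF1, which carries DNA methylation over to the new strand, was at 0.781, 4.60 and 1.38 TPM at day 0, 15.2, 7.96 and 11.3 TPM at day 7, then 3.92, 3.61 and 3.86 TPM at day 15 (contrast 1.71, SE 0.30, adjusted p = 0.0261). EZH2, the methyltransferase of Polycomb complex PRC2, and LMNB1, a protein of the nuclear lamina, were the other 2 called of 22 genes in that list, with contrasts of 0.91 and 1.23. Of 23 genes of recombination repair, 5 were called higher, among them the checkpoint kinase CHEK2 (contrast 0.77).

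Some matrix genes rose, among them genes of the basement membrane, the sheet that surrounds capillaries and muscle cells. Of its 13 genes tested 4 were called higher (1.53% of all genes were) and 0 lower, and the median contrast was 0.60. In 8 of the 13 the day 7 libraries lay above the other 6 (6.15% of all genes). HSPG2, the heparan sulfate proteoglycan perlecan, was at 75.1, 66.5 and 94.0 TPM at day 0, 136, 118 and 152 TPM at day 7, then 80.0, 54.7 and 80.8 TPM at day 15 (contrast 0.85, SE 0.18, adjusted p = 0.0351). NID2, a linker of laminin and collagen IV networks, was at 23.1 to 38.4 TPM, then 65.3 to 94.6 TPM, then 58.1 to 63.0 TPM, so its level at day 15 remained near that of day 7 (contrast 0.89, adjusted p = 0.0332). LAMA4, the laminin chain of vessel walls, and COL4A5, a collagen IV chain, were called with contrasts of 0.63 and 0.90. The summed TPM of the list was 751 to 930 at day 0, 1198 to 1405 at day 7 and 893 to 1055 at day 15, without overlap between day 7 and either other age.

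Among 36 collagens and structural matrix genes, 2 were called higher (1.53% of all genes were), with a median contrast of 0.37. In 28 of the 36 the highest mean was at day 7 (35.2% of all genes) and in 2 the lowest (15.5%). In 5 all day 7 libraries lay above the other 6 (6.15% of all genes). Among 32 genes of collagen processing and remodelling none was called. Differences between the 3 matrix lists were not tested. COL15A1, a collagen that anchors basement membranes, was at 44.1, 64.8 and 64.7 TPM at day 0, 125, 130 and 107 TPM at day 7, then 68.3, 29.2 and 55.0 TPM at day 15 (contrast 1.19, SE 0.24, adjusted p = 0.033). FBN1, the fibrillin of elastic microfibrils, had a contrast of 1.06 (adjusted p = 0.0257). The abundant fibrillar collagens did not pass: COL3A1 had a contrast of 0.69 (adjusted p = 0.106) with all day 7 libraries above the rest, and COL1A1 a contrast of 0.46 (adjusted p = 0.329) with overlapping libraries. Of 13 fibroblast markers 1 was called, THY1, whose level stayed up: it was at 5.51 to 13.6 TPM at day 0, 33.3 to 43.5 TPM at day 7 and 32.4 to 39.9 TPM at day 15.

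Further genes with large peaks belonged to none of the lists, as did 130 of the 188. LXN, an inhibitor of carboxypeptidases, was at 5.90, 7.71 and 7.17 TPM, then 29.9, 21.6 and 27.6 TPM, then 14.2, 4.71 and 11.7 TPM (contrast 1.59, SE 0.26, adjusted p = 0.0223). MASP1, a serine protease of the lectin complement pathway, was at 4.61, 7.63 and 6.09 TPM, then 20.2, 17.4 and 22.8 TPM, then 4.74, 11.3 and 5.50 TPM (contrast 1.52, SE 0.24, adjusted p = 0.0184). SEMA6C, a membrane semaphorin, had a contrast of 1.32 and no overlap. None of these 3 was called against day 15 alone.

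SYT2, a calcium sensor of vesicle release, was low, and reached 1 TPM only in the day 7 libraries. It was at 0.347, 0.656 and 0.406 TPM at day 0, 3.78, 3.81 and 2.52 TPM at day 7, then 0.865, 0.241 and 0.483 TPM at day 15. Its contrast was 1.54 (SE 0.18), and since it entered the test only through its high group, its call is a description. The row ENSSSCG00000035617, which the files do not pair with a name, was at 8.86, 6.86 and 9.29 TPM, then 32.8, 22.6 and 28.1 TPM, then 7.90, 9.89 and 10.1 TPM (contrast 1.55, SE 0.17, adjusted p = 0.00451). Both were picked after their values were seen, as the 2 genes that passed the joint requirement.

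Muscle and regulatory genes gave single calls, where 1.92% of all genes were called in either direction. MYOM2, a protein of the sarcomere's M-band, was at 43.4, 28.8 and 34.0 TPM at day 0, 117, 105 and 217 TPM at day 7, then 63.8, 108 and 106 TPM at day 15, so its day 7 and day 15 libraries overlapped (contrast 1.29, SE 0.25, adjusted p = 0.0328). It was the only call among 27 sarcomere genes. TBX4, a T-box factor, was at 2.18, 4.40 and 1.95 TPM, then 7.36, 3.09 and 10.2 TPM, then 0.521, 1.00 and 0.532 TPM, and it passed against day 15 but not against day 0 (contrast 1.55, SE 0.29, adjusted p = 0.0316). CIART, a repressor in the circadian clock, was the only call among 19 clock genes, with 4.56 to 5.08 TPM at day 0, 10.3 to 18.8 TPM at day 7 and 5.66 to 9.01 TPM at day 15 (contrast 1.05, adjusted p = 0.0297). KIT, the stem cell factor receptor of mast cells and some vascular cells, was at 9.25 to 9.92 TPM at day 7 against 3.06 to 8.02 TPM elsewhere (contrast 0.96, adjusted p = 0.0371). It was 1 of 2 mast cell markers that could be tested, and the other was not called.

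Among lower genes of at least 5 TPM whose day 7 libraries overlapped no other library, a transporter of lactate had the largest fall. SLC16A3, the exporter MCT4 of cells with high glycolysis, was at 41.1, 36.0 and 51.1 TPM at day 0, 8.42, 14.1 and 6.14 TPM at day 7, then 28.0, 22.6 and 30.7 TPM at day 15. Every day 7 library was below the other 6, the contrast was -1.79 (SE 0.22, limma adjusted p = 0.00696), and it passed against each other age separately. PGM1, which links glycogen and glucose phosphates, was at 394, 194 and 449 TPM, then 111, 122 and 73.6 TPM, then 152, 159 and 171 TPM (contrast -1.19, SE 0.25, adjusted p = 0.0359), with most of its fall lasting to day 15.

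Other glycolytic genes leaned the same way without being called. Of 27 genes of the list, 2 were called lower (0.391% of all genes were) and 0 higher. Lists of the citric acid cycle and the nuclear-encoded respiratory chain, given below, leaned likewise. The median contrast of the glycolytic list was -0.29, and 19 of the 27 had their lowest mean at day 7, where 15.5% of all genes did. GAPDH, the most abundant member, was at 6187, 6826 and 6484 TPM at day 0, 4856, 5894 and 3777 TPM at day 7, then 7996, 6723 and 8273 TPM at day 15, without overlap (contrast -0.56, adjusted p = 0.0946). ALDOA and TPI1 also had all 3 day 7 libraries below the other 6, with contrasts of -0.70 (adjusted p = 0.0767) and -0.43 (adjusted p = 0.211). HK2, the insulin-responsive hexokinase, picked after its values were seen, was at 12.7, 7.03 and 13.3 TPM, then 1.58, 5.39 and 0.357 TPM, then 7.20, 3.03 and 5.56 TPM (contrast -1.57, adjusted p = 0.0698). The list's median deviation was -0.11, 0.08 and -0.58 in the day 7 libraries, lowest in replicate 6. Without replicate 6 its median contrast was -0.17 against 0.09 over all genes, and without replicate 5 it was -0.46 against -0.015. That library was also lowest of the 9 in the nuclear-encoded respiratory chain list (median deviation -0.36) and had the highest share of mitochondrial transcripts, 24.6%. The part of these differences in the glycolytic values was not tested.

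Genes of lipid handling gave 2 troughs. RXRG, a retinoid receptor that pairs with PPARs, was at 10.8, 11.4 and 11.3 TPM at day 0, 2.97, 6.25 and 2.70 TPM at day 7, then 9.25, 13.2 and 15.3 TPM at day 15 (contrast -1.43, SE 0.22, adjusted p = 0.0184). It passed against each other age separately and returned in full. FABP4 was at 212, 293 and 267 TPM, then 116, 54.9 and 65.2 TPM, then 161, 182 and 161 TPM (contrast -1.46, SE 0.21, adjusted p = 0.0144). No gene was called among 30 of fatty acid uptake and oxidation, or among the nuclear-encoded respiratory chain, the 31 of pyruvate dehydrogenase and the citric acid cycle, and the 13 mitochondrially encoded genes. With 1.92% of all genes called, lists of this size would hold few calls or none at that share. Of the 31 genes, 23 had their lowest mean at day 7 and 2 their highest (median contrast -0.23). In the nuclear-encoded respiratory chain these were 26 and 0 of 46 (median -0.15), beside 15.5% and 35.2% of all genes. Mitochondrially encoded genes went the other way, with 2 lowest and 9 highest. A lean to a low at day 7 was thus not particular to glycolysis.

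**Figure D5:**
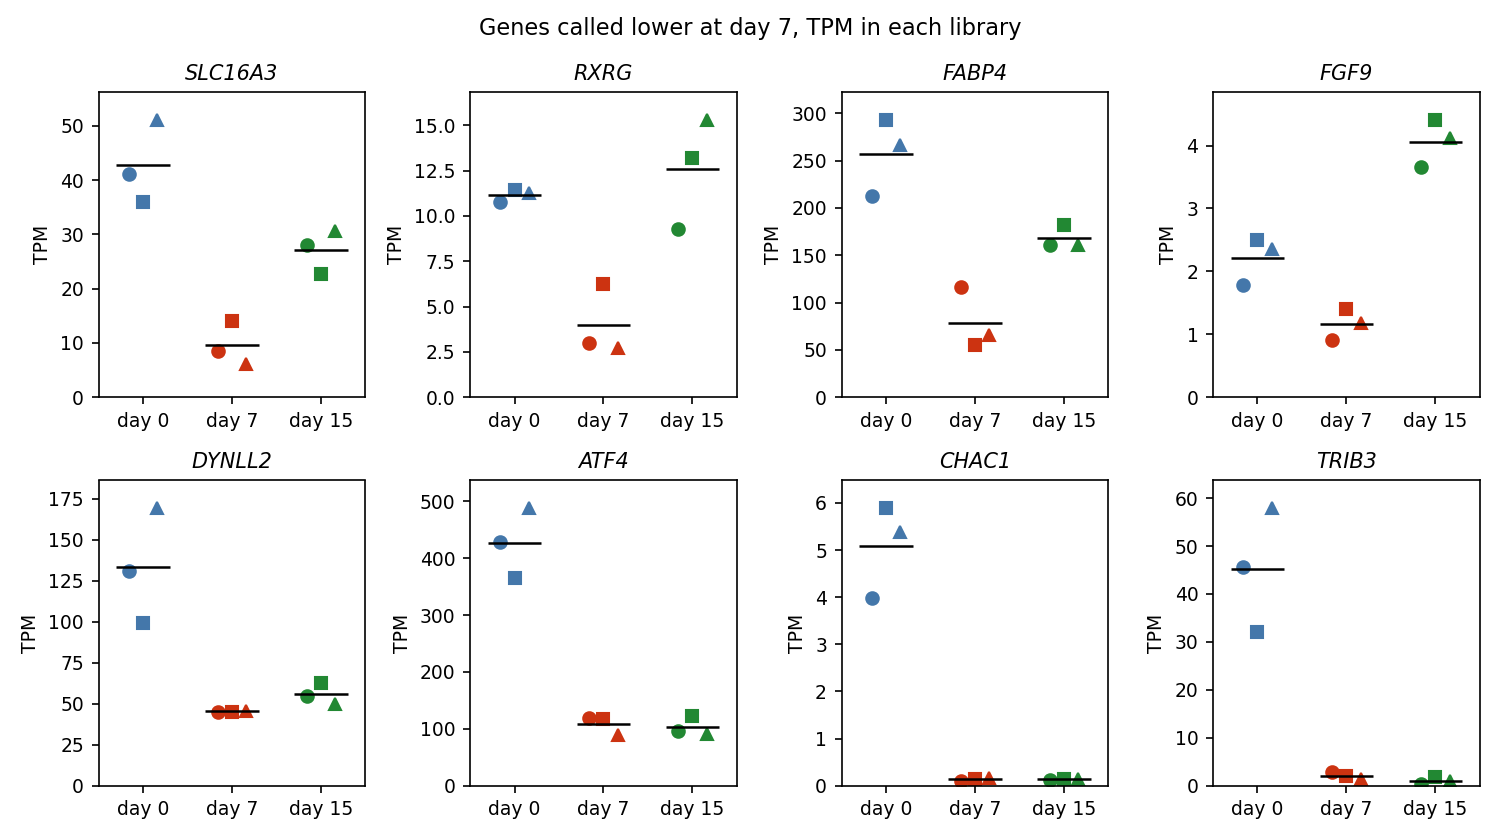
TPM of 8 genes called lower at day 7, with 1 point per library and the mean of each age as a bar; circles, squares and triangles are the replicates in label order within each age. SLC16A3, RXRG, FABP4 and FGF9 are lowest at day 7 and higher again at day 15, while ATF4, CHAC1 and TRIB3 are high only at day 0.

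Of 32 receptors and signals of growth, FGF9 and FGF1 were called lower (0.391% of all genes were) and KIT higher (1.53% were), with a median contrast of 0.11. In 14 the highest mean was at day 7 (35.2% of all genes) and in 5 the lowest (15.5%), so the list lay near all genes in this count. FGF9, a fibroblast growth factor with roles in heart growth before birth, was at 1.78, 2.49 and 2.36 TPM at day 0, 0.902, 1.41 and 1.18 TPM at day 7, then 3.65, 4.41 and 4.13 TPM at day 15. It passed against both other ages separately, and its day 15 level was above that of the newborn (contrast -0.90, SE 0.15, adjusted p = 0.0252). FGF1 was at 42.9 to 61.4 TPM, then 21.8 to 29.8 TPM, then 28.0 to 37.6 TPM (contrast -0.77, adjusted p = 0.0463), and its day 7 and day 15 libraries overlapped. FGF23, a hormone of phosphate balance, was at or below 0.316 TPM at day 7, 0.431 to 0.696 TPM at day 0 and 1.32 to 2.98 TPM at day 15. It reached 1 TPM only at day 15, so its call is a description.

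Regulators with a trough included CITED1, a transcriptional coactivator, at 66.8, 103 and 77.3 TPM, then 58.6, 50.1 and 34.9 TPM, then 122, 92.7 and 78.1 TPM (contrast -0.90, SE 0.21, adjusted p = 0.0496). The histone gene HIST2H2BE had a contrast of -1.03 (adjusted p = 0.0423), and DYNLL2, a dynein light chain, one of -0.89 (adjusted p = 0.032). DYNLL2 was at 45.1 to 45.5 TPM at day 7 and at most 62.5 TPM at day 15, against 99.3 to 169 TPM in the newborn. CKB, the brain-type creatine kinase, was at 136, 180 and 185 TPM, then 30.6, 35.7 and 13.3 TPM, then 111, 26.4 and 39.8 TPM, with 1 day 15 library well above the other pair (contrast -1.84, SE 0.39, adjusted p = 0.0371). CDKN1A, the cell cycle inhibitor p21, had all 3 day 7 libraries below the other 6, at 20.9, 22.9 and 8.99 TPM against 28.0 to 54.2 TPM, and did not pass (contrast -1.19, adjusted p = 0.0538).

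The 13 lower genes without a trough were high at day 0 and low at both later ages. Of 35 genes of the ATF4 response, the program that cells run when amino acids are short, 9 were called lower and 0 higher (25.7%, against 0.391% of all genes). The median contrast was -0.60, and 23 passed the test of day 7 below day 0, as did 8.88% of all genes. Against day 15 the list's median difference was 0.14, and 0 of its genes passed. Over all genes 0.13% passed above day 15 and 0.0408% below it, so that 0 does not set the list apart. ATF4 itself was at 428, 364 and 488 TPM at day 0, 120, 117 and 89.3 TPM at day 7, then 96.4, 122 and 90.1 TPM at day 15 (contrast -0.94, SE 0.17, adjusted p = 0.0261). CHAC1, which breaks down glutathione, was at 3.99, 5.89 and 5.39 TPM, then 0.108 to 0.170 TPM, then 0.120 to 0.142 TPM. CHAC1, SESN2 and FGF21, which are 3 of the 9, reached 1 TPM only in the newborn libraries and add no support to the count. TRIB3, a pseudokinase that restrains AKT, the amino acid carriers SLC1A4 and SLC3A2, the hormone FGF21 and the factor ATF5 had the same layout, with day 7 and day 15 both low. Since the average of the other ages includes the newborn, such genes are called without a dip at day 7. DDIT3, the factor CHOP, counted as a trough by its means, at 38.1 to 86.5 TPM, then 4.17 to 7.33 TPM, then 6.47 to 10.4 TPM, but its day 7 and day 15 libraries overlapped and it regained 14.4% of its fall. SESN2 also counted as a trough, with all 3 day 7 libraries below the other 6, at levels under 1 TPM from day 7 on.

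Most other programs of the postnatal heart had no member called in the day 7 contrast. This held for 28 genes of ribosome biogenesis, 54 ribosomal proteins, 32 proteasome genes, 27 genes of cholesterol synthesis, 31 interferon-stimulated genes, 30 splicing regulators and 30 calcium handling and ion channel genes. Over all genes 1.92% were called, and at that share lists of this size would hold few calls or none. The lack of calls therefore does not set these programs apart. Ribosome biogenesis had 22 of its 28 genes called below the newborn at day 7, where 8.88% of all genes were. Its median day 7 minus day 15 difference was 0.27, so its course ran one way. Interferon-stimulated genes varied widely between libraries of an age, with summed TPM of 214, 1262 and 258 at day 7 and 545, 3469 and 1796 at day 15.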

How the data were processed

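The authors deposited 1 table of TPM values, 22629 rows by 9 libraries. Libraries were made with an Illumina TruSeq stranded mRNA kit, per the labels' protocols, and per the submitters' processing notes Trimmomatic 0.33, HISAT2 2.0.5 and kallisto 0.43.1 were used, with their roles unstated. The sources used here do not name the genome build, the annotation or a strand setting. Of 7534 rows with an Ensembl identifier, 915 matched a table of names. TPM keeps no depth, so no counting error is given, and an abundant transcript shifts the share of all others. Near-identical genes and overlapping genes are less certain.

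Genes at 1 TPM or more in at least 3 libraries were tested on log2(TPM + 1), a scale that understates changes of low genes. limma 3.58.1 in R 4.3.3 fitted 1 mean per age to all 9 libraries (trended empirical Bayes, with 6 residual degrees of freedom), with Benjamini-Hochberg adjustment and a threshold of 0.05. The main contrast was day 7 minus the average of day 0 and day 15. A peak or trough also needed the highest or lowest mean at day 7. The procedure was tested on simulated data.

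Named genes were the largest contrasts without overlap between libraries and with at least 5 TPM (up to 12 per direction), genes past both pairwise tests at that level, up to 4 called members per list and its most abundant member, and a list of names. The members and the 59 gene lists were chosen with earlier results of these data known. Alternatives covered the pseudocount, filters, scaling, the model and leaving out each library. Promoter and protein sequences were not used here. Some genes that met the naming rule are not reported here.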

Additional observations from a re-analysis of the deposited data

How the results depend on the processing

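The counts moved widely with the processing. Every called gene that could be tested kept its sign and an unadjusted p under 0.05 in all 22 alternatives. The alternatives refit most or all of the same libraries, and the genes were chosen for small p-values. Keeping both was therefore close to given and adds no support. The genes higher and lower were 188 and 48 as reported, 111 and 30 with a pseudocount of 0.1 TPM, 37 and 7 without a filter, 71 and 18 at a mean of at least 5 TPM, 282 and 302 with median-of-ratios scaling, 284 and 269 with quantile normalization, 492 and 158 when rescaled without mitochondrial transcripts and the 20 most abundant genes, 346 and 138 without the most abundant gene, 1191 and 428 with library weights, and 44 and 42 with the term for Y-linked transcripts, added after seeing the data. Called peaks and troughs were then 111 and 22, 37 and 4, 71 and 11, 273 and 280, 279 and 247, 485 and 134, 344 and 113, 1164 and 337, and 44 and 33 in the same order. The joint requirement above both ages, met by 2 genes as reported, was met by 0 genes with the pseudocount of 0.1 TPM, without a filter, under all 4 scalings, with the replicate block and with the term for Y-linked transcripts, by 1 at a mean of at least 5 TPM and by 112 with library weights. Below both ages it was met by 7 genes with library weights. Leaving out 1 library gave 0 to 587 genes higher, 0 to 130 lower, 0 to 573 peaks, 0 to 98 troughs, and 0 to 5 above and 0 to 4 below both ages, with fewer libraries in each of these fits. The median contrast of cell cycle inhibitors and p53 targets ran from -0.225 to 0.0170 when 1 library was left out, turning positive without day 15 replicate 2, and that of receptors and signals of growth turned to -0.0496 without day 7 replicate 5. The cause of the other shifts was not tested.

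With the replicate number as a block, 13 genes were higher and 15 lower, with 13 peaks and 13 troughs. The numbers did not pair the libraries: same-numbered libraries correlated at 0.003, 0.03, 0.10, -0.21 and 0.17 in their deviations from the age means. The depth behind TPM is unknown, so it is not known which low genes it limits.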

Other observations

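Several further genes called higher at day 7 had courses that the gene lists do not cover. They were chosen after their values were seen. XDH, the oxidase that makes uric acid, had the largest positive contrast of all called genes, 1.97 (SE 0.43, limma adjusted p = 0.0412), but its libraries disagreed, at 1.08, 2.96 and 1.68 TPM at day 0, 8.16, 2.07 and 16.4 TPM at day 7, then 0.334, 1.04 and 0.104 TPM at day 15. TMSB10, an actin-binding thymosin, was the most abundant named gene of this kind, at 521, 882 and 559 TPM, then 1891, 1470 and 1260 TPM, then 1122, 912 and 782 TPM (contrast 0.98, adjusted p = 0.0351). SLC24A3, a sodium, calcium and potassium exchanger, was at 4.81, 4.44 and 4.55 TPM at day 7, against 1.84 to 3.51 TPM in the newborn and 0.544 to 0.850 TPM at day 15, and passed against both ages separately. BMF, a BH3 protein of the apoptosis pathway, was at 1.81 to 2.31 TPM, then 6.92 to 18.7 TPM, then 4.26 to 7.08 TPM (contrast 1.42, adjusted p = 0.0261). The kinase ULK1, which starts autophagy, stayed near its day 7 level at day 15. It was at 8.38 to 10.8 TPM at day 7 and 7.46 to 8.50 TPM at day 15, against 2.22 to 4.03 TPM in the newborn. The called row with the largest negative contrast, ENSSSCG00000036836, which the files do not pair with a name, was at 15.5, 15.0 and 29.3 TPM, then 1.22, 5.06 and 0 TPM, then 3.03, 12.7 and 20.9 TPM, with overlapping day 7 and day 15 libraries (contrast -2.62, SE 0.55, adjusted p = 0.0370).

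The row with the largest day 7 contrast of all was not called and behaved as on or off. ENSSSCG00000035520, which the files do not pair with a name, was at 0.741 TPM in day 7 replicate 2 and 0.664 TPM in day 7 replicate 6, and at 4074 TPM in day 7 replicate 5. In the 6 libraries of the other ages it was at 3576 to 4899 TPM (contrast -7.49, adjusted p = 0.0632). A search of the whole table for rows that reach 20 TPM with a gap of at least 20-fold between neighbouring libraries, values under 1 TPM being set to 1, found 6 rows. Of these DDX3Y, ENSSSCG00000012178 and ENSSSCG00000033734 were on in the same 4 libraries, day 7 replicates 2 and 5 and day 15 replicates 2 and 6. The rows ENSSSCG00000035311 and ENSSSCG00000002529 were each high in a single library, at 22.8 TPM in day 7 replicate 2 and at 117 TPM in day 15 replicate 1. ENSSSCG00000035520 did not follow that split.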
